A study of Mus musculus with 9 samples.

Results

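Messenger RNA of the contractile apparatus of smooth muscle was measured in mouse testes on postnatal day 7. The 10 genes are Acta2, Myh11, Tagln, Cnn1, Des, Actg2, Mylk, Myl9, Tpm2 and Myocd. They were taken by symbol from the 56691 genes of the count table, matched through their Ensembl identifiers, and all 10 had enough counts to be tested. The testes were from double knockout mice (DKO, Gm1142-/- Gm4779-/-), from mice labelled as Gm1142 knockouts (Gm1142-/-) and from wild type (WT), with 3 libraries in each group. The sources used here do not name the strain, litters, pooling or the design of the alleles. The labels do not tie replicates to separate animals, so p-values measure spread among libraries that may be technical.

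Peritubular myoid cells are flattened smooth-muscle-like cells that surround the seminiferous cords, and their contraction later moves fluid and sperm along the tubule. The walls of testis arteries hold vascular smooth muscle, which uses the same machinery. In both, calcium and calmodulin activate myosin light-chain kinase, which phosphorylates the regulatory light chain so that smooth muscle myosin can pull on actin filaments. Most of the genes are driven by serum response factor together with its coactivator myocardin through CArG boxes, DNA motifs with an A/T-rich core between CC and GG. In whole testis, fewer cells of a type and less RNA per cell cannot be told apart.

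Total gene counts were 4370124 to 8359594 per library. In the DKO both targeted genes had 0 counts in 3 of 3 libraries. The libraries labelled as Gm1142 knockouts held 65, 46 and 50 counts of Gm1142, listed as 8030474K03Rik, against 56, 50 and 41 in WT, so the targeted gene was not lower in them. Gm4779 had 88, 61 and 59 counts in these libraries, against 42, 48 and 53 in WT. The sources used here do not give the deleted part of the gene, and these are called Gm1142KO-labelled libraries below. Replicate 2 of these libraries stood apart, with the highest share of mitochondrially encoded counts (38.9%, against 27.1% to 35.2% in the other 8) and the lowest Actb (172 CPM, against 238 to 396 CPM). Levels are in CPM, read counts relative to library size, with sizes scaled by the trimmed mean of M-values (TMM). Differences are log2 fold changes tested with edgeR's quasi-likelihood test, and a gene is called at a Benjamini-Hochberg adjusted p under 0.05 over the 17251 genes tested.

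RefSeq windows from 250 bases before to 50 bases after the transcription start (GRCm38.p6) were available for 6 of the 10 genes, and 3 are shown. These are Acta2 and Myl9, the most abundant per length, and Des, the gene called lower in the Gm1142KO-labelled libraries. The windows are chr19:34255324-34255623 on the minus strand for Acta2, chr2:156775214-156775513 on the plus strand for Myl9 and chr1:75360042-75360341 on the plus strand for Des. Capitals mark a CArG box, searched on both strands in its strict form or with at most 1 G or C in the core, so that the relaxed form includes the strict one.
Acta2: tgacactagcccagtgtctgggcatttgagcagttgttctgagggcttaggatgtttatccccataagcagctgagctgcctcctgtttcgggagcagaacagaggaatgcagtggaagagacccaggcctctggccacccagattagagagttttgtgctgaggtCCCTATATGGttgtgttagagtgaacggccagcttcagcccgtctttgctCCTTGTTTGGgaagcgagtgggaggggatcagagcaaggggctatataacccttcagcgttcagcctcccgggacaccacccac
Myl9: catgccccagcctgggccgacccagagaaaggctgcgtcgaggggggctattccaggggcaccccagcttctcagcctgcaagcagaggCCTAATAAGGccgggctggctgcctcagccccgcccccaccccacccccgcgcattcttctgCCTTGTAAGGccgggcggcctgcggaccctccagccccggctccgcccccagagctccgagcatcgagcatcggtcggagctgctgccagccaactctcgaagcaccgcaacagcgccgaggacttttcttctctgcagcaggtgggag
Des: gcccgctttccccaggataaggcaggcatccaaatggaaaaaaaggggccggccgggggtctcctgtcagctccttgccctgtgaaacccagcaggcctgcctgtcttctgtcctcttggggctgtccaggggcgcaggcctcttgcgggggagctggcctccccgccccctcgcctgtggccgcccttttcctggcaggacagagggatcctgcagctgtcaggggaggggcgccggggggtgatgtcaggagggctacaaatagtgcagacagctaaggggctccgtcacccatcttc
A strict CArG box stood in the Myl9 window alone of the 6, at -161 to -152 from the start, and in 1.63% of the 32851 windows of the RefSeq table. The relaxed form stood in the Myl9 window also at -99 to -90, in the Acta2 window at -84 to -75 and at -34 to -25, and in 9.98% of all windows. The windows of Des, Tpm2, Cnn1 and Mylk held neither form, which says only that these letters are not in these windows.

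Per kilobase of exon, the contractile genes of WT testis spanned a range from Acta2 to Myocd. Exonic lengths are those of GENCODE M21 on GRCm38, and all values in this paragraph are mean levels in CPM per kilobase (n = 3). Acta2, the smooth muscle alpha-actin, stood at 125 ± 23.1 in the DKO, 124 ± 30.1 in the Gm1142KO-labelled libraries and 121 ± 12.6 in WT (SD). Myl9, the regulatory light chain of smooth muscle myosin, followed at 113 ± 20.0 in the DKO, 112 ± 22.4 in the Gm1142KO-labelled libraries and 107 ± 7.07 in WT, and its range overlapped that of Acta2 in every group. Mylk, the kinase that phosphorylates this light chain, came next at 34.9 in the DKO, 38.0 in the Gm1142KO-labelled libraries and 37.0 in WT, apart from its neighbours above and below in each group. Myh11, the smooth muscle myosin heavy chain, and Tpm2, the beta-tropomyosin that lies along actin filaments, overlapped each other in all 3 groups and stood at 19.9 and 20.1 in WT. Actg2, the enteric gamma-actin, had 9.88 in WT. Cnn1, the actin-binding protein calponin, and Des, the intermediate filament protein desmin, overlapped at 5.16 and 4.70 in WT. Tagln, the actin-bundling protein transgelin, and Myocd closed the order at 1.66 and 1.36 in WT and overlapped in every group. Other genes share 67.9% of the exonic bases of Tagln, so its place in this order is uncertain.

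**Figure D1:**
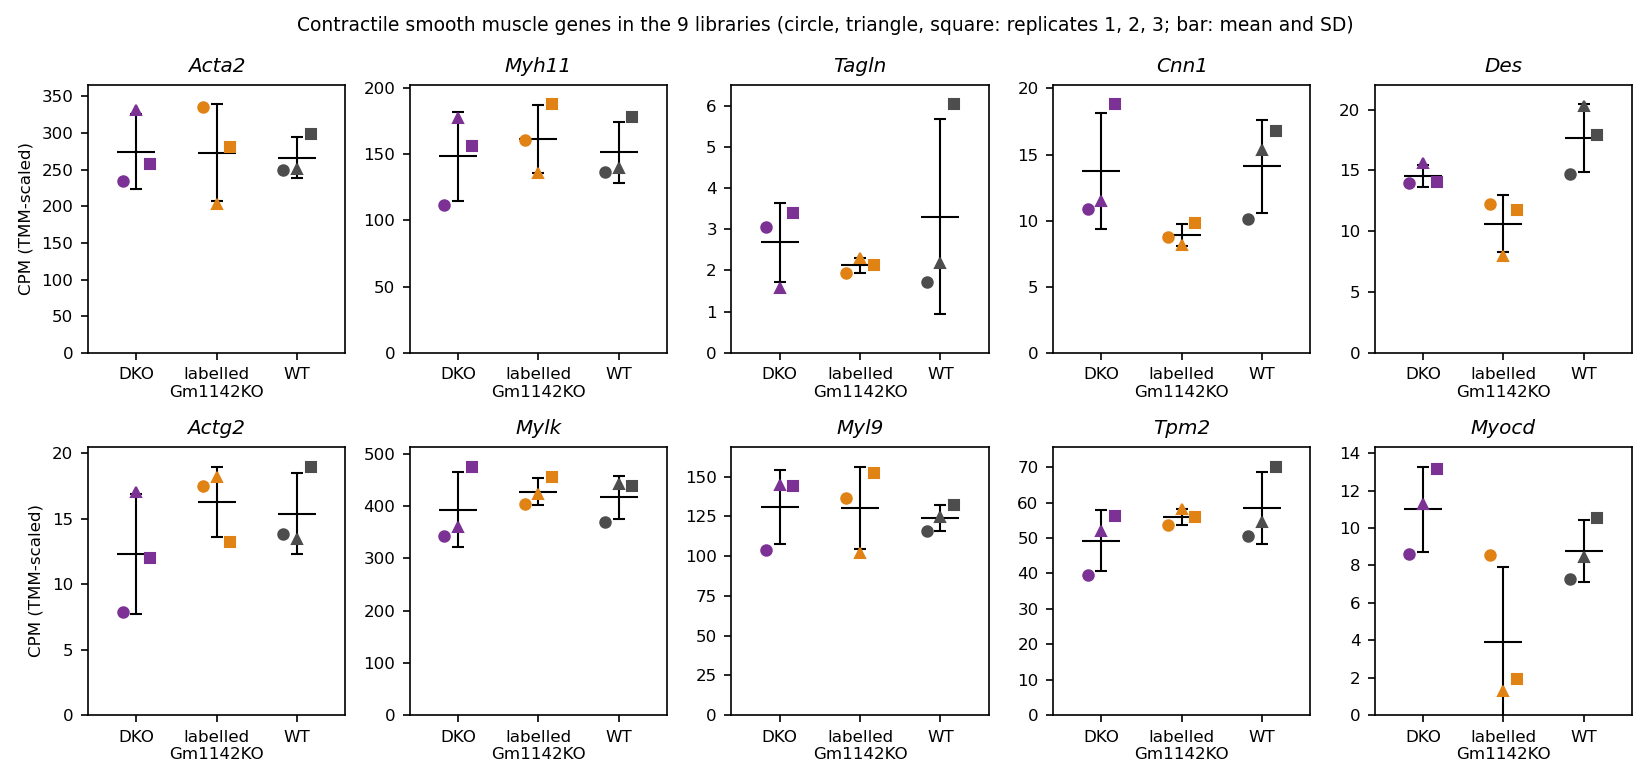
Levels of the 10 genes in CPM on TMM-scaled library sizes (vertical axes from 0), in the DKO, the Gm1142KO-labelled libraries and WT. Each symbol is 1 library and bars give the mean and SD, cut at 0 for Myocd. Acta2, Myh11, Mylk and Myl9 overlap between all groups, Des and Cnn1 lie lowest in the Gm1142KO-labelled libraries, and Myocd is at 1.28 and 1.92 CPM in 2 of those libraries.

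Counted over the 10 genes, 0 rose and 1 fell (Des) in the Gm1142KO-labelled libraries relative to WT, where 18.5% of all genes tested were called, 10.2% higher and 8.38% lower. The median log2 fold change of the 10 was -0.01, and that of all genes tested was also -0.01. Groups did not overlap for 2 of the 10, both lower (Cnn1 and Des), against 17.2% of all genes lower and 18.7% higher. Between the DKO and WT, 0 of 10 were called and 0 had an unadjusted p under 0.05 with edgeR. DESeq2 and limma-voom also called 0, and of all genes 0.0927% were called, 0.0464% in each direction. The median was -0.07, against 0.02 for all genes. All 10 genes overlapped between the DKO and WT, where 7.57% of all genes did not overlap and were lower and 8.28% were higher. Between the DKO and the Gm1142KO-labelled libraries, 1 rose (Myocd) and 0 fell, where 19.1% of all genes were called, 9.07% higher and 10.1% lower, and the median was 0.01 against 0.03. Groups did not overlap for 3 of the 10, all higher in the DKO (Cnn1, Des and Myocd), against 16.3% of all genes higher and 17.1% lower. The comparisons share libraries, so the values of Des, Cnn1 and Myocd in 1 comparison are not independent of those in the next.

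The myosin motor and its activating kinase did not pass the test in any comparison. Myh11 (chromosome 16, 14194535 to 14291372, minus strand, GRCm38) had 112, 177 and 156 CPM in the DKO, 161, 136 and 187 CPM in the Gm1142KO-labelled libraries and 136, 139.8 and 178 CPM in WT. The 3 groups overlapped, and the spread within a group was wider than the distance between the means. The log2 fold change of Myh11 was -0.03 in the DKO over WT (95% interval -0.36 to 0.31) and 0.09 in the Gm1142KO-labelled libraries over WT (-0.24 to 0.43). Mylk (chromosome 16, 34745210 to 35002420, plus strand) had 343, 360.3 and 476 CPM in the DKO, 404, 423 and 456 CPM in the Gm1142KO-labelled libraries and 369, 443 and 438 CPM in WT. Its log2 fold change was -0.09 in the DKO over WT (-0.35 to 0.18) and 0.04 in the Gm1142KO-labelled libraries over WT (-0.23 to 0.30), the narrowest intervals of the 10 genes. Myl9 (chromosome 2, 156775420 to 156781658, plus strand) averaged 131 ± 23.3 CPM in the DKO, 130.3 ± 26.0 CPM in the Gm1142KO-labelled libraries and 124 ± 8.21 CPM in WT (SD, n = 3 each), with log2 fold changes over WT of 0.08 (-0.24 to 0.40) and 0.07 (-0.25 to 0.39).

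The actins and tropomyosin of the thin filament did not pass either. Acta2 (chromosome 19, 34241090 to 34255590, minus strand) had 234, 332 and 258 CPM in the DKO, 335, 203 and 281 CPM in the Gm1142KO-labelled libraries and 249.6, 251 and 298 CPM in WT. The lowest and the highest of the 9 values were both in Gm1142KO-labelled libraries. Its log2 fold change was 0.05 in the DKO over WT (-0.28 to 0.37) and 0.04 in the Gm1142KO-labelled libraries over WT (-0.29 to 0.37). Actg2 (chromosome 6, 83512905 to 83536265, minus strand) had 7.85, 17.0 and 12.0 CPM in the DKO, 17.5, 18.2 and 13.2 CPM in the Gm1142KO-labelled libraries and 13.8, 13.4 and 19.0 CPM in WT. The log2 fold change of Actg2 was -0.30 in the DKO over WT (-0.86 to 0.27) and 0.08 in the Gm1142KO-labelled libraries over WT (-0.49 to 0.65). The ratio of Acta2 to Actg2 CPM was 19.5 to 29.9 in the DKO, 11.2 to 21.3 in the Gm1142KO-labelled libraries and 15.8 to 18.8 in WT. Tpm2 (chromosome 4, 43514711 to 43523765, minus strand) averaged 49.3 ± 8.61 CPM in the DKO, 56.0 ± 2.35 CPM in the Gm1142KO-labelled libraries and 58.5 ± 10.3 CPM in WT, with log2 fold changes over WT of -0.25 (-0.58 to 0.09) and -0.06 (-0.40 to 0.27). The actins resemble each other, but 0.326% of the 50-base words of Acta2 transcripts and 0% of those of Actg2 occur in transcripts of other genes of GENCODE M21.

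The thin-filament regulators Cnn1 and Tagln had low counts. Cnn1 (chromosome 9, 22099216 to 22109630, plus strand) had 10.9, 11.5 and 18.8 CPM in the DKO, 8.74, 8.18 and 9.80 CPM in the Gm1142KO-labelled libraries and 10.1, 15.4 and 16.8 CPM in WT. All 3 Gm1142KO-labelled libraries lay below all WT and all DKO libraries and the nearest were 9.80 CPM and the 10.1 CPM of a WT library. The log2 fold change of Cnn1 was -0.66 in the Gm1142KO-labelled libraries over WT (SE 0.28, edgeR's adjusted p = 0.12) and 0.61 in the DKO over these libraries (SE 0.28, edgeR's adjusted p = 0.145), so neither was called. Tagln (chromosome 9, 45929619 to 45936058, minus strand) had 16, 14 and 15 counts in the DKO, 10, 9 and 10 in the Gm1142KO-labelled libraries and 9, 11 and 28 in WT. WT replicate 3 stood far above the other WT libraries. The log2 fold change of Tagln over WT was -0.33 in the DKO and 0.42 without that library, and it was -0.62 in the Gm1142KO-labelled libraries and 0.12 without it. Of the exonic bases of Tagln in GENCODE M21, 62.4% are shared with Gm48529, a gene on the opposite strand, and 5.43% with Pcsk7. The sources used here do not give the strand setting of the counting, so reads of Tagln and Gm48529 cannot be told apart and the low level of Tagln is uncertain. Gm48529 itself had 30, 61 and 38 counts in the DKO, 56, 40 and 58 in the Gm1142KO-labelled libraries and 29, 25 and 65 in WT, where the same replicate 3 was highest.

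Des was the single gene of the 10 called lower in the Gm1142KO-labelled libraries relative to WT, where 8.38% of all genes were called lower. Des (chromosome 1, 75360329 to 75368579, plus strand) had 14.0, 15.6 and 14.0 CPM in the DKO, 12.2, 7.93 and 11.7 CPM in the Gm1142KO-labelled libraries and 14.7, 20.3 and 17.9 CPM in WT. Every library labelled Gm1142 knockout lay below every WT and every DKO library, and replicate 2 was lowest. The log2 fold change was -0.72 over WT (SE 0.24, 95% interval -1.23 to -0.21, edgeR's adjusted p = 0.0436). The call was lost with DESeq2 (adjusted p = 0.0668), with limma-voom (0.0598), with no filter (0.0751) and with the compared groups alone (0.05001). It was also lost without replicate 2 (edgeR's adjusted p = 0.156) or 3 (0.0702) of the Gm1142KO-labelled libraries and without WT replicate 2 (0.164) or 3 (0.0983), while the log2 fold change stayed between -0.84 and -0.56. In the DKO over WT the log2 fold change of Des was -0.27 (-0.76 to 0.21), and in the DKO over the Gm1142KO-labelled libraries it was 0.44 (SE 0.24, edgeR's adjusted p = 0.216). The ratio of Des to Acta2 CPM was 0.0469 to 0.0596 in the DKO, 0.0365 to 0.0417 in the Gm1142KO-labelled libraries and 0.0590 to 0.0808 in WT. Those ranges do not overlap between the Gm1142KO-labelled libraries and either other group. The same holds for the levels of Des alone, so the ratio is not separate evidence. An antisense gene, Gm15179, covers 5.86% of the exonic bases of Des and averaged 0.556 counts per library. Desmin also occurs in striated muscle. The summed level of 21 striated muscle genes was 70.3 to 103 CPM in the DKO, 76.9 to 96.9 CPM in the Gm1142KO-labelled libraries and 71.0 to 75.9 CPM in WT. Of the 21, 3 to 5 were at 0 counts in a DKO library, 3 to 7 in a Gm1142KO-labelled library and 4 to 7 in a WT library. Of these genes 12 were tested. Ckm, Actc1, Myod1 and Myog did not exceed 0.777 CPM in any library. Tnnt2 reached 24.2 CPM, Ttn 16.1 CPM, Mylpf 15.6 CPM, Tnnt1 12.2 CPM and Ryr1 9.66 CPM. Tnnt3 reached 9.32 CPM, Tnni2 8.23 CPM, Myh3 7.93 CPM and Myh7 7.85 CPM. Striated muscle transcripts were thus present, and their part in the level of Des was not tested. These genes were named after their values were seen.

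Myocd, which encodes the coactivator myocardin, differed most between libraries. Myocd (chromosome 11, 65176561 to 65269989, minus strand) had 8.61, 11.3 and 13.1 CPM in the DKO (45, 100 and 58 counts), 8.55, 1.28 and 1.92 CPM in the Gm1142KO-labelled libraries (44, 5 and 9 counts) and 7.27, 8.48 and 10.6 CPM in WT (38, 43 and 49 counts). Replicate 1 of the Gm1142KO-labelled libraries lay within the WT range, and the other 2 lay far below every other library. In the DKO over the Gm1142KO-labelled libraries, Myocd was higher by 1.43 on the log2 scale (SE 0.45, 95% interval 0.49 to 2.37, edgeR's adjusted p = 0.0303). All DKO libraries lay above those, the nearest at 8.61 CPM in the DKO and 8.55 CPM. The call was lost with the compared groups alone (edgeR's adjusted p = 0.0587), without DKO replicate 2 (0.0806) or 3 (0.0750) and without replicate 2 (0.107) or 3 (0.138) of the Gm1142KO-labelled libraries. Without replicate 1 of the Gm1142KO-labelled libraries the log2 fold change was 2.75 (edgeR's adjusted p = 1.92e-04). In the Gm1142KO-labelled libraries over WT the log2 fold change was -1.11 (SE 0.46, edgeR's adjusted p = 0.104), which was not called. It was called with no filter (-1.11, edgeR's adjusted p = 0.0295), with limma-voom (-1.47, 0.0467) and without replicate 1 of the Gm1142KO-labelled libraries (-2.42, edgeR's adjusted p = 7.03e-04). Between the DKO and WT the groups overlapped, at 0.33 (-0.54 to 1.20).

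**Figure D2:**
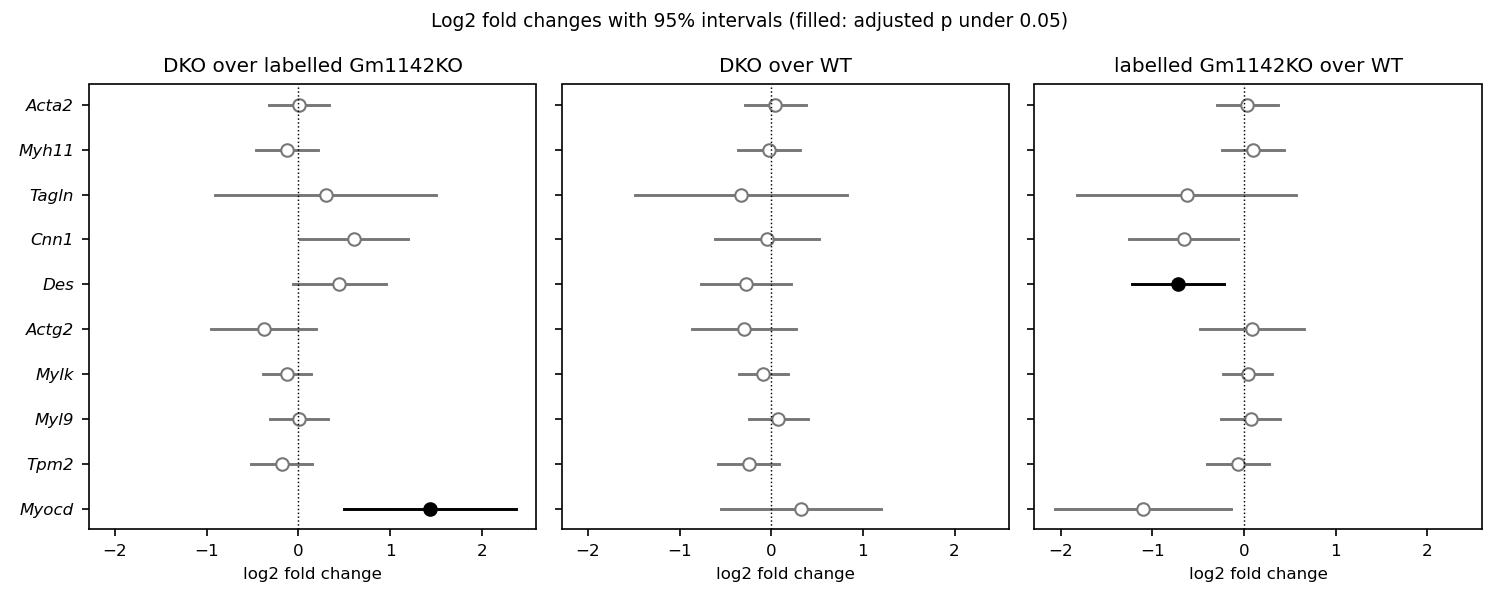
Log2 fold changes of the 10 genes with 95% intervals for the DKO over the Gm1142KO-labelled libraries, the DKO over WT and the Gm1142KO-labelled libraries over WT. Filled points have an adjusted p from edgeR under 0.05: Myocd at 1.43 in the DKO over the Gm1142KO-labelled libraries, and Des at -0.72 in those libraries over WT.

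In WT and in the DKO, 9 of the 10 genes were lowest in the same library of the group. WT replicate 1 was the lowest WT library for 9 of the 10 genes and WT replicate 3 the highest for 8, while among all genes tested these libraries were lowest for 34.2% and highest for 35.1%. DKO replicate 1 was the lowest DKO library for 9 of 10, against 31.5% of all genes. Both DKO replicate 1 and WT replicate 1 lay below the WT mean for all 10. Replicate 2 of the Gm1142KO-labelled libraries was the lowest of its group for 6 of 10, against 33.8% of all genes. The median of the 10 genes relative to their WT means was -0.31 in DKO replicate 1 and -0.34 in replicate 2 of the Gm1142KO-labelled libraries on the log2 scale. It was -0.19 in WT replicate 1 and 0.24 in WT replicate 3. Over all genes tested, with a small offset added to the levels, the median was between -0.03 and 0.01 in each library. TMM scaling holds that median near 0 in advance, so it does not measure how unusual the shifts of the 10 are. The summed level of the 10 was 877 to 1151 CPM in the DKO, 961 to 1171 CPM in the Gm1142KO-labelled libraries and 969.6 to 1187 CPM in WT. What sets a library's level for these genes was not tested.

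**Figure D3:**
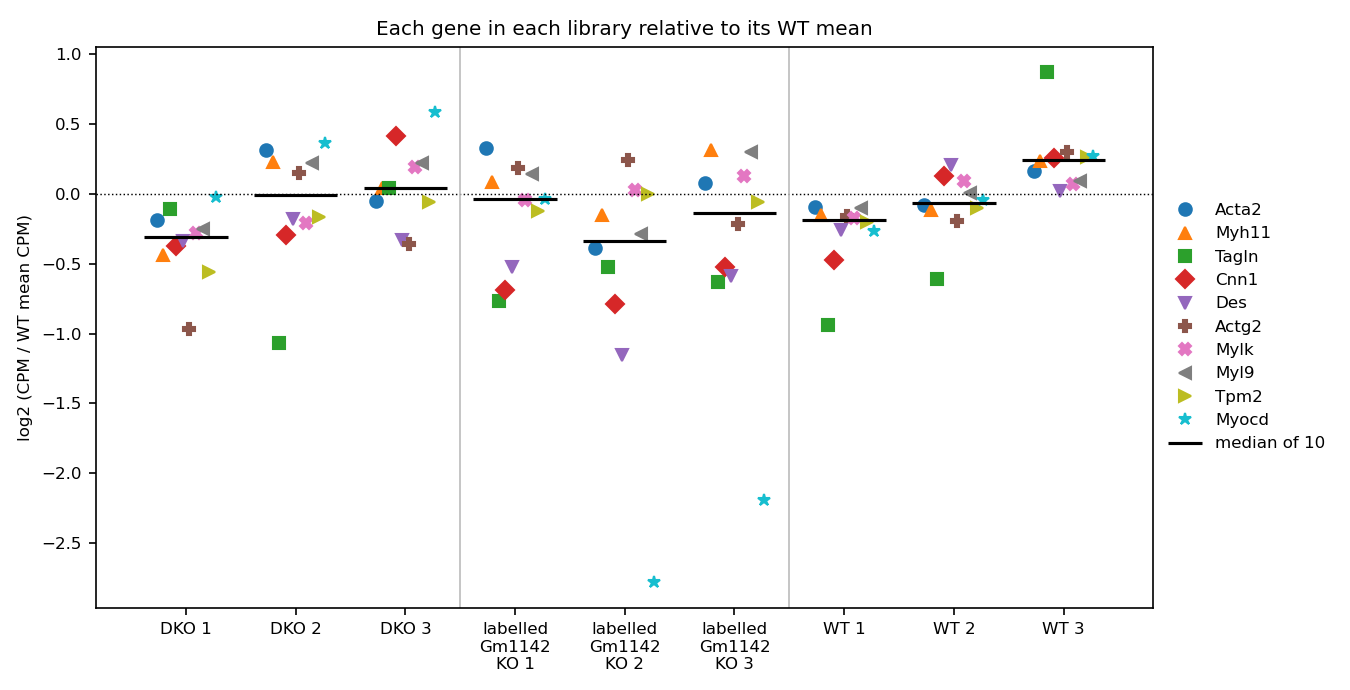
Level of each of the 10 genes in each library relative to its WT mean, as log2 of the CPM ratio, with the median of the 10 as a bar. DKO replicate 1 (median -0.31) and WT replicate 1 (-0.19) lie below 0 for all 10 genes, and WT replicate 3 (0.24) above 0 for all 10. Myocd lies lowest in replicates 2 and 3 of the Gm1142KO-labelled libraries.

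Beyond the 10 genes, a list of 32 further genes of the smooth muscle contractile apparatus was examined, of which 31 were tested. In the Gm1142KO-labelled libraries relative to WT, 2 rose and 1 fell, where 10.2% of all genes tested were called higher and 8.38% lower. The median was 0.15 against -0.01 for all genes. With edgeR, 9 of the 31 had an unadjusted p under 0.05, as had 5311 of the 17251 genes tested. The summed level of the 32 was 2561 to 2725 CPM in the DKO and 2624 to 2920 CPM in WT. It was 3075 to 3135 CPM in the Gm1142KO-labelled libraries, which did not overlap with either other group. Smtn, the actin-binding protein smoothelin, averaged 82.7 ± 7.74 CPM in those libraries and 54.1 ± 5.10 CPM in WT (log2 fold change 0.61, SE 0.15, edgeR's adjusted p = 0.00612). The actin cross-linker gene Actn1 rose by 0.55 (SE 0.14, edgeR's adjusted p = 0.0103), a call lost without WT replicate 2 (0.0733). Lmod1, the smooth muscle leiomodin that nucleates actin filaments, fell by 0.97 (SE 0.33, edgeR's adjusted p = 0.0473), and the call was lost under 9 of 15 alternatives, with an adjusted p of up to 0.167. The DKO had 0 of 31 called against WT, where 0.0927% of all genes were called, and 1 of 31 had an unadjusted p under 0.05. The median was -0.02 against 0.02. Against the Gm1142KO-labelled libraries, 7 fell and 1 rose in the DKO, where 10.1% of all genes were called lower and 9.07% higher. The median was -0.00 against 0.03. The genes that fell were Smtn (-0.88), Actn1 (-0.66), the LIM-domain gene Pdlim7 (-0.63), the collagen-receptor integrin gene Itga1 (-0.61), the alpha-tropomyosin gene Tpm1 (-0.41), the myosin phosphatase subunit gene Ppp1r12a (-0.37) and the filamin gene Flna (-0.34), and Lmod1 rose (1.03). The calls of Smtn and Actn1 were kept under all 15 alternatives, and each of the other 6 was lost under at least 1. Flna and Lmod1 were named after their values were seen.

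Among 16 regulators of smooth muscle transcription, all tested, 1 rose and 1 fell in the Gm1142KO-labelled libraries relative to WT. Of all genes tested, 10.2% were called higher and 8.38% lower in that comparison. Carmn, a long noncoding RNA gene of smooth muscle beside the microRNA genes Mir143 and Mir145a, had 28.9, 13.3 and 31.5 CPM in the DKO, 119, 117 and 130.0 CPM in the Gm1142KO-labelled libraries and 27.4, 24.6 and 40.1 CPM in WT. The Gm1142KO-labelled libraries stood far above the other 6, while the DKO and WT overlapped. Over WT the log2 fold change of Carmn was -0.36 in the DKO (SE 0.24, edgeR's adjusted p = 0.698) and 1.99 in the Gm1142KO-labelled libraries (SE 0.23, edgeR's adjusted p = 5.26e-06). Mir143 had 8, 7 and 10 counts in the DKO, 68, 52 and 58 in the Gm1142KO-labelled libraries and 17, 10 and 5 in WT, and rose by 2.596 on the log2 scale in the Gm1142KO-labelled libraries over WT (SE 0.43, edgeR's adjusted p = 2.74e-04). Mir145a had 43, 49 and 34 counts in the DKO, 115, 102 and 120 in the Gm1142KO-labelled libraries and 25, 40 and 43 in WT, and rose by 1.76 in the same comparison (SE 0.27, edgeR's adjusted p = 1.31e-04). In the DKO both microRNA genes overlapped with WT. These 3 calls, and the opposite ones in the DKO relative to the Gm1142KO-labelled libraries (-2.35, -3.16 and -1.80), were kept under all 15 alternatives. Libraries of captured mRNA do not measure mature microRNAs, and reads over the microRNA genes may come from a longer transcript, which was not tested. Srf, the serum response factor gene, was at -0.12 on the log2 scale in the Gm1142KO-labelled libraries over WT (SE 0.17, edgeR's adjusted p = 0.689) and its other coactivator genes Mrtfa and Mrtfb at -0.0003 and -0.37, none called. Between the DKO and WT, where 0.0927% of all genes were called, 0 of the 16 were called and 0 had an unadjusted p under 0.05. In the DKO relative to the Gm1142KO-labelled libraries 1 rose and 3 fell, where 9.07% of all genes were called higher and 10.1% lower. The 3 that fell were Carmn, the zinc-finger gene Gata6 (-0.62) and the mural-cell receptor gene Notch3 (-0.78), whose call was lost under 4 of 15 alternatives.

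**Figure D4:**
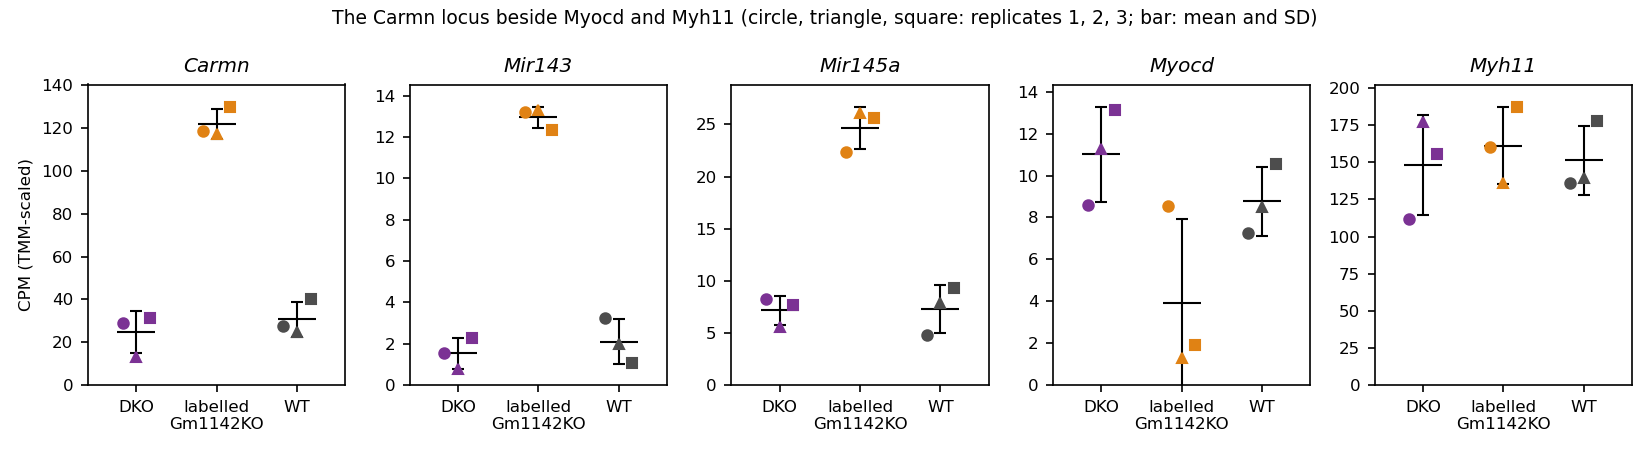
Levels of Carmn, Mir143 and Mir145a beside Myocd and Myh11, in CPM on TMM-scaled library sizes (vertical axes from 0), in the DKO, the Gm1142KO-labelled libraries and WT. Symbols are libraries and bars the mean and SD, cut at 0 for Myocd. Carmn is at 117 to 130.0 CPM in the Gm1142KO-labelled libraries and at 40.1 CPM or less in the other 6, while Myh11 overlaps between all groups.

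Peritubular myoid cells respond to desert hedgehog from Sertoli cells, and a list of 15 hedgehog pathway and other peritubular genes was read beside the contractile ones. In the Gm1142KO-labelled libraries relative to WT, 2 rose and 1 fell, where 10.2% of all genes were called higher and 8.38% lower. The median was -0.09 against -0.01 for all genes. The hedgehog effector gene Gli1 rose by 0.53 (SE 0.14, edgeR's adjusted p = 0.00905), a call lost without WT replicate 2 (0.0648), and Ptch1, a hedgehog receptor gene, was at -0.06 (SE 0.12). In the DKO relative to WT, where 0.0927% of all genes were called, 0 of 15 were called and 0 had an unadjusted p under 0.05. In the DKO relative to the Gm1142KO-labelled libraries 2 fell, among them Gli1 (-0.75), and 1 rose. Of all genes, 10.1% were called lower and 9.07% higher there.

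Genes of neighbouring cell types were read to see what moved with the contractile genes, whose part in the results was not tested. Of all genes tested, 18.5% were called in the Gm1142KO-labelled libraries over WT and 0.0927% in the DKO over WT. The share was 19.1% in the DKO over the Gm1142KO-labelled libraries. Of 12 pericyte and mural-cell genes 10 were tested. None was called in either knockout group relative to WT, with unadjusted p under 0.05 for 0 in the DKO and 1 in the Gm1142KO-labelled libraries. Their summed level was 166 to 181 CPM in the DKO, 177 to 256 CPM in the Gm1142KO-labelled libraries and 172 to 209 CPM in WT. Of 12 endothelial genes 0 were called relative to WT in either group, with 3 in the DKO and 0 in the Gm1142KO-labelled libraries at an unadjusted p under 0.05. Their sums were 176 to 225 CPM in the DKO, 192 to 312 CPM in the Gm1142KO-labelled libraries and 215 to 264 CPM in WT. Of 12 interstitial stroma genes 0 were called in any of the 3 comparisons, with 2 at an unadjusted p under 0.05 in each knockout group relative to WT. Those with the smallest p were Tcf21, at -0.48 in the DKO over WT (edgeR's adjusted p = 0.382), and Igf1, at -0.56 in the Gm1142KO-labelled libraries over WT (edgeR's adjusted p = 0.0808). The stroma sums were 2364 to 3601 CPM in the DKO, 2439 to 4233 CPM in the Gm1142KO-labelled libraries and 2967 to 3547 CPM in WT. Of 12 non-muscle actin and myosin genes 1 rose in the Gm1142KO-labelled libraries relative to WT, Myl12a, a non-muscle relative of Myl9, at 125 ± 15.8 CPM in those libraries and 73.8 ± 5.67 CPM in WT (0.76, SE 0.13, edgeR's adjusted p = 4.64e-04). Of the 12 striated muscle genes tested, Tnnt2 (0.995) and Ttn (1.64) rose in the same comparison while 0 fell. Of 10 duct epithelium genes 0 were called relative to WT in either group, with 4 in the DKO and 1 in the Gm1142KO-labelled libraries at an unadjusted p under 0.05 with edgeR. Their summed level was 74.6 to 90.1 CPM in the DKO, 109 to 128 CPM in the Gm1142KO-labelled libraries and 118 to 139 CPM in WT, so the DKO did not overlap with either other group. In the DKO over WT 9 of the 10 duct genes lay below 0, as did 47.7% of all genes, with a median log2 fold change of -0.56 against 0.02 for all genes. In the same comparison 11 of the 12 stroma genes lay below 0 (median -0.20). So did 9 of the 12 endothelial genes (median -0.24) and 7 of the 10 mural-cell genes tested (median -0.12). Between the DKO and the Gm1142KO-labelled libraries, the mural-cell adhesion gene Mcam (-0.53), the endothelial genes Vwf (-1.24) and Egfl7 (-0.71), Myl12a (-0.77), the troponin gene Tnni2 (-1.20) and the cadherin gene Cdh16 (-0.92) fell in the DKO, and the endothelial receptor gene Kdr (0.88) rose. The calls of Mcam, Egfl7 and Myl12a were kept under all 15 alternatives. Those of Vwf and Kdr were kept under 12, that of Cdh16 under 11 and that of Tnni2 under 3.

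Marker genes of other testis cells also differed between the groups. The shares called over all genes were 18.5% in the Gm1142KO-labelled libraries over WT and 0.0927% in the DKO over WT. For the DKO over the Gm1142KO-labelled libraries the share was 19.1%. Of 7 Leydig cell genes 6 were tested, and 3 fell in the Gm1142KO-labelled libraries relative to WT: the steroidogenic enzyme genes Cyp17a1 (-2.64) and Hsd3b1 (-0.67) and the ferredoxin reductase gene Fdxr (-1.23). The summed level of the 7 was 456 to 656 CPM in the DKO, 276 to 367 CPM in the Gm1142KO-labelled libraries and 521 to 766 CPM in WT. In the DKO 0 of the 6 were called relative to WT, with 0 at an unadjusted p under 0.05, and the same 3 rose relative to the Gm1142KO-labelled libraries (2.15, 0.59 and 1.01). Of 8 germ cell genes 3 rose in the DKO relative to WT, Dazl (0.83), Uchl1 (0.77) and Sycp1 (1.10). In the Gm1142KO-labelled libraries relative to WT, Uchl1 (0.49) and Sycp1 (0.62) also rose and Dazl fell (-0.66). Relative to those libraries 6 of the 8 rose in the DKO, among them Dazl (1.49) and Sycp1 (0.48), while Uchl1 was at 0.28 (edgeR's adjusted p = 0.155). The germ cell sums were 681 to 838 CPM in the DKO, 369 to 461 CPM in the Gm1142KO-labelled libraries and 416 to 498 CPM in WT. Of 10 Sertoli cell genes 1 rose (Wt1, 0.46) and 2 fell (Sox9, -1.47, and Cst9, -0.75) in the Gm1142KO-labelled libraries relative to WT, and 0 were called in the DKO relative to WT, with 2 at an unadjusted p under 0.05. Relative to the Gm1142KO-labelled libraries, 3 rose and 1 fell in the DKO, and the summed level of the Sertoli cell genes was 1105 to 1252 CPM in the DKO, 1229 to 1324 CPM in the Gm1142KO-labelled libraries and 1194 to 1267 CPM in WT.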

How the data were processed

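One table of raw counts of reads per gene was deposited, with a column for each of 9 libraries of mRNA captured on oligo-dT beads. Per the submitters' processing notes, cutadapt, Bowtie2, STAR and featureCounts were used with mm39. The sources used here do not give the strand setting, the annotation release or how multimapping reads were treated. Coordinates and lengths are from GENCODE M21 (GRCm38) and describe the reference only. Of 56691 identifiers 52073 matched a symbol. Counts were analysed with edgeR 4.0.16 in R 4.3.3: genes kept by filterByExpr per group (count of at least 10, total of at least 15), TMM factors from 0.856 to 1.07, 1 quasi-likelihood model over the 9 libraries with 6 residual degrees of freedom, and Benjamini-Hochberg adjustment over 17251 genes. The SE is the log2 fold change divided by the square root of F, and 95% intervals use the model's total degrees of freedom. The test was tested on simulated data. Alternatives were RLE size factors, other filters, DESeq2 1.42.0, limma-voom (limma 3.58.1), a model of just the compared groups, a block for replicate number, removal of mitochondrial genes, and leaving out each library. A fit without replicate 2 of both knockout groups was chosen after seeing the data. Replicate pairs differed beyond sampling noise (chi-square per degree of freedom 3.65 or more). Named genes were the 10 members, the targeted genes, up to 6 called genes of each list by smallest p or else the 2 with the smallest p, and the 6 nearest profiles; members and lists were chosen with earlier results of these data known. A list is described by its counts and median, with no set test. Carmn's neighbours Mir143 and Mir145a were added after their values were seen. Ptch1, Srf, Mrtfa, Mrtfb, Actb and the genes that overlap Tagln and Des are also named outside this rule. Some genes that this rule names are not reported here.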

Additional observations from a re-analysis of the deposited data

How the results depend on the processing

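The count of the 10 genes called in the Gm1142KO-labelled libraries relative to WT was 1, and it was 0 with DESeq2, with the compared groups alone, with the replicate number as a block and without replicate 2 of both knockout groups. With no filter and with limma-voom Des was not called and Myocd was. Leaving out 1 library gave 0 to 2. The count was 0 without replicate 2 or 3 of the Gm1142KO-labelled libraries and without WT replicate 2 or 3. Between the DKO and the Gm1142KO-labelled libraries the count was 1, and 0 with the compared groups alone and without replicate 2 of both knockout groups. With 1 library left out it was 0 to 1, and it was 0 without replicate 2 or 3 of either group. Over all genes, the DKO relative to WT had 16 calls, against 110 with no filter, 61 with DESeq2, 28 with the compared groups alone, 8 without mitochondrial genes and 9 to 32 with 1 library left out. The Gm1142KO-labelled libraries relative to WT had 3196 calls, and 2037 to 3015 with 1 library left out, the lowest without WT replicate 1. The DKO relative to those libraries had 3301, and 2128 to 3219 with 1 library left out, the lowest without DKO replicate 2, and 2004 without replicate 2 of both. The cause was not tested.

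Signs turned only for genes that were not called. In the DKO relative to the Gm1142KO-labelled libraries, Acta2 was at -0.00064 with RLE size factors, -0.0029 without mitochondrial genes and -0.32 without replicate 2 of both knockout groups, and Myl9 at -0.0028, -0.0042 and -0.22. Without both of those libraries, the DKO relative to WT gave -0.12 for Acta2, 0.0692 for Cnn1 and -0.0023 for Myl9. With 1 library left out, log2 fold changes in the Gm1142KO-labelled libraries relative to WT spanned -0.14 to 0.21 for Acta2, -0.0371 to 0.22 for Myh11, -0.94 to 0.12 for Tagln, -0.0096 to 0.25 for Actg2, -0.0435 to 0.0811 for Mylk, -0.0656 to 0.22 for Myl9 and -0.16 to 0.0842 for Tpm2. For the DKO relative to WT they spanned -0.13 to 0.14 for Acta2, -0.19 to 0.13 for Myh11, -0.64 to 0.42 for Tagln, -0.34 to 0.0939 for Cnn1 and -0.0136 to 0.20 for Myl9, and in the DKO relative to the Gm1142KO-labelled libraries -0.17 to 0.18 for Acta2, -0.26 to 0.03 for Myh11 and -0.15 to 0.13 for Myl9.

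Libraries with the same replicate number did not deviate together: their correlations were -0.267 to 0.101, and 1 of 9 libraries correlated best with its own number. With the replicate number as a block, Des was at -0.72 in the Gm1142KO-labelled libraries relative to WT (edgeR's adjusted p = 0.0660) and Myocd at 1.56 in the DKO relative to those libraries (edgeR's adjusted p = 0.0336). Depth limits Tagln and Myocd most, with 9 to 28 and 5 to 100 counts per library, and a count of 0 allows up to 0.338 to 0.767 CPM, for counting error only.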

Other observations

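Among the 6 genes nearest to the mean profile of the 10 contractile genes over the 9 libraries, by the root mean square difference of centred log2 CPM among 10603 genes of at least 10 mean CPM, were Atp6ap1 (0.0746), Wbp2 (0.0860), Cic (0.0954), Pgghg (0.103) and Xlr3b (0.110). The 10 genes themselves lay at 0.192 (Myl9) to 0.849 (Myocd) from that profile. A gene flat over the libraries would lie at 0.223 from it. Myl9, Acta2 (0.197) and Tpm2 (0.213) lay nearer than that and the other members farther, so the mean profile describes few of the members. Each member is part of the mean, so some nearness is built in. Myocd entered with log2 ratios to its WT mean of -2.78 and -2.19 in replicates 2 and 3 of the Gm1142KO-labelled libraries. The nearest genes therefore partly follow Myocd. All of this is a description over libraries that share groups and depth.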
